A study of Mus musculus with 6 samples.

Results

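The genes of the proteasome were taken by symbol: every gene whose name begins with Psma, Psmb, Psmc, Psmd, Psme, Psmf or Psmg followed by a digit. The rule found 50 of the 17060 genes listed in the deposited tables, and all 50 had reads in all 6 cultures and passed the filter on low counts. By the known role of their products, 15 encode subunits of the 20S core, 4 encode immunoproteasome or thymoproteasome subunits, 17 encode subunits of the 19S cap, 7 encode assembly factors, and 6 encode activators or the inhibitor of the core. The remaining gene, Psmc3ip, shares only the letters of its name with this family, since its product is a meiotic recombination factor that binds Psmc3, and it was kept out of the counts by role.

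Lineage-negative BM cells of wild-type mice, labelled as erythroblasts, were cultured in the EPO induction system and were given NUP-17d, an inhibitor of Plek2, or its vehicle DMSO for 48 hours. Each condition had 3 cultures, and nothing in the labels says whether they came from separate mice, so p-values measure only the spread between these cultures. NUP-17d was the one agent that differed between the conditions, and the EPO medium was common to both. The cultures are a mixed population that began as progenitors of all lineages.

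The proteasome degrades proteins that carry ubiquitin chains. Its 20S core is a barrel of 4 rings, with alpha subunits in the outer rings and beta subunits, 3 of them catalytic, in the inner rings. The 19S cap recognizes the ubiquitin chain, removes it, and unfolds and feeds the substrate through its ring of ATPases. In cells exposed to interferon and in many hematopoietic cells, immunoproteasome subunits take the places of the catalytic subunits, and other activators can sit on the core instead of the cap. During terminal erythroid maturation the ubiquitin system removes many proteins and whole organelles while hemoglobin accumulates.

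The expected counts, the authors' estimates of reads per gene, summed to 20278433 to 20419018 in the DMSO cultures and to 20076409 to 20170197 in the NUP-17d cultures. Hemoglobin genes took 18.3% to 20.3% of the counts with DMSO and 11.8% to 13.1% with NUP-17d, so that every other gene drew on a larger remainder with NUP-17d. The scaling of the libraries therefore sets the zero of every fold change here. With TMM scaling, which centers on the bulk of genes, the median log2 fold change of the 12306 genes tested was 0.014. It was 0.16 when hemoglobin genes were removed and libraries were scaled by what remained, and 0.28 when libraries were scaled by their totals alone. Values below are CPM, counts divided by the scaled size of the library, and log2 fold changes under TMM unless another scaling is named, and a gene is called higher or lower at an adjusted p-value below 0.05 in edgeR's quasi-likelihood test over all genes. Only proportions of RNA can be read from such libraries, and fewer cells of a type and less RNA per cell cannot be told apart.

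How the summed level of the 50 genes compared depended on what it was set against. Of all counts they took 0.474%, 0.486% and 0.488% in DMSO cultures 1, 2 and 3 and 0.483%, 0.482% and 0.483% in NUP-17d cultures 1, 2 and 3, and the groups overlapped. Of the counts outside hemoglobin they took 0.595% to 0.601% with DMSO and 0.547% to 0.556% with NUP-17d, and their summed CPM under TMM was 5223 to 5347 with DMSO and 4351 to 4463 with NUP-17d, with no overlap in either. Without the single gene Psme3, the share of the other 49 was 0.356% to 0.372% with DMSO and 0.391% to 0.392% with NUP-17d, with no overlap. Of the counts outside hemoglobin, these 49 genes took 0.447% to 0.455% with DMSO and 0.443% to 0.451% with NUP-17d, which overlapped. Their summed CPM under TMM was 3993.9 to 4015.2 with DMSO and 3541.5 to 3625.7 with NUP-17d, with no overlap.

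Relative to the bulk of genes, 29 of the 50 genes were called lower, beside 18.9% of all genes tested, and 3 were called higher, beside 16.4% of all genes tested. The median log2 fold change of the 50 was -0.14, against 0.014 over all genes. The direction depended on the scaling: when libraries were scaled by totals alone, 3 were called lower (5.36% of all genes) and 30 higher (68.7% of all genes), and with hemoglobin genes removed 9 were called lower (8.57% of all genes) and 8 higher (46.4% of all genes). The position of the members among all genes did not depend on it. These scalings move all genes by the same amount, so this was fixed in advance. Under each of these 3 scalings, 41 of the 50 lay below the median of all genes, and the median of the 50 lay 0.15 below it on the log2 scale. In 33 of the 50 all 3 NUP-17d cultures lay below all 3 DMSO cultures, as in 23.2% of all genes, and in 4 they all lay above, as in 22.8% of all genes.

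**Figure D1:**
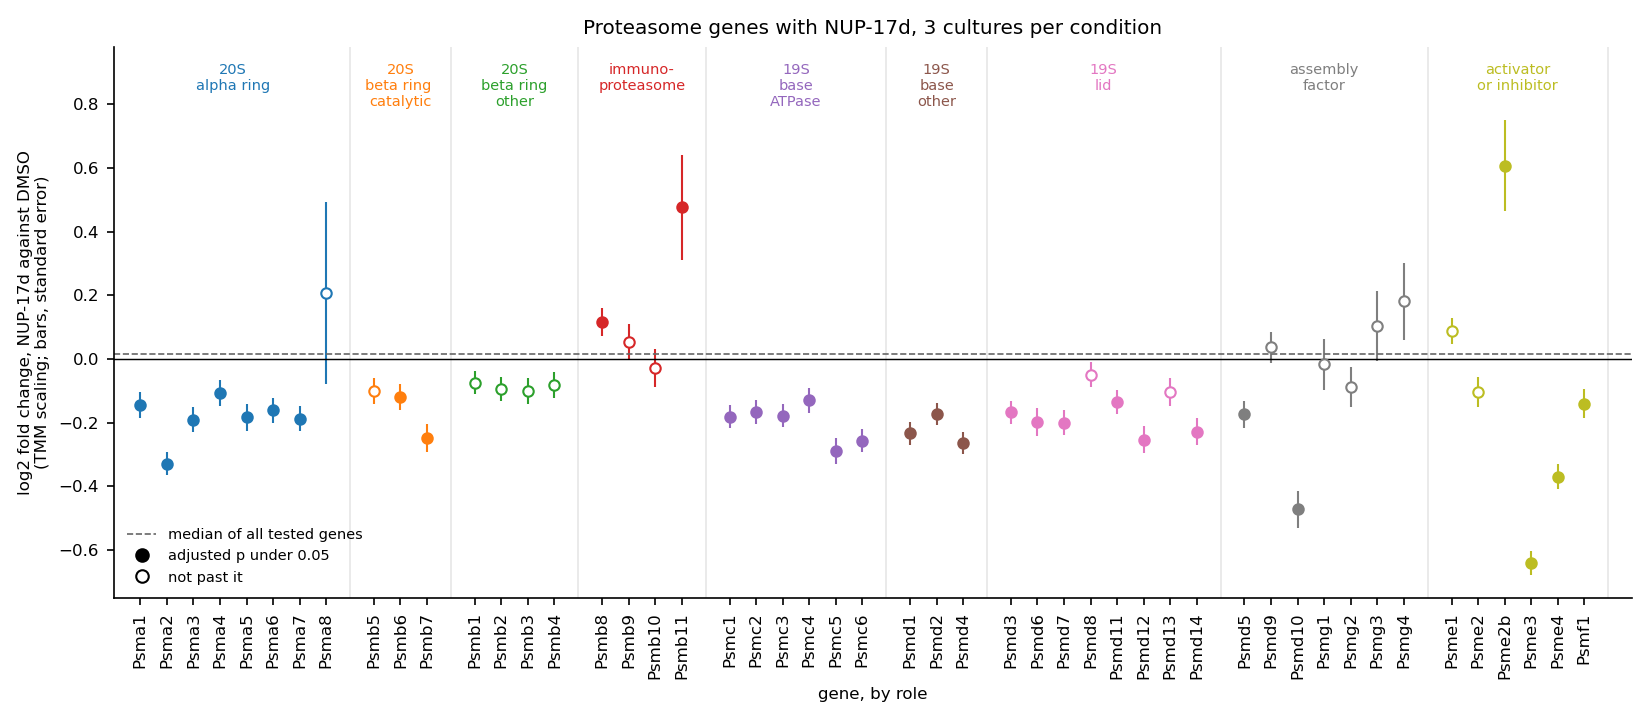
Log2 fold change of each proteasome gene with NUP-17d against DMSO under TMM scaling, on the vertical axis, for 49 genes grouped by role on the horizontal axis; bars are standard errors, filled points passed an adjusted p of 0.05 and the dashed line is the median of all tested genes. Nearly all 20S and 19S subunits lie in a narrow band below the line, immunoproteasome subunits lie around or above it, and Psme3 at -0.64 and Psmd10 at -0.47 lie lowest.

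**Figure D2:**
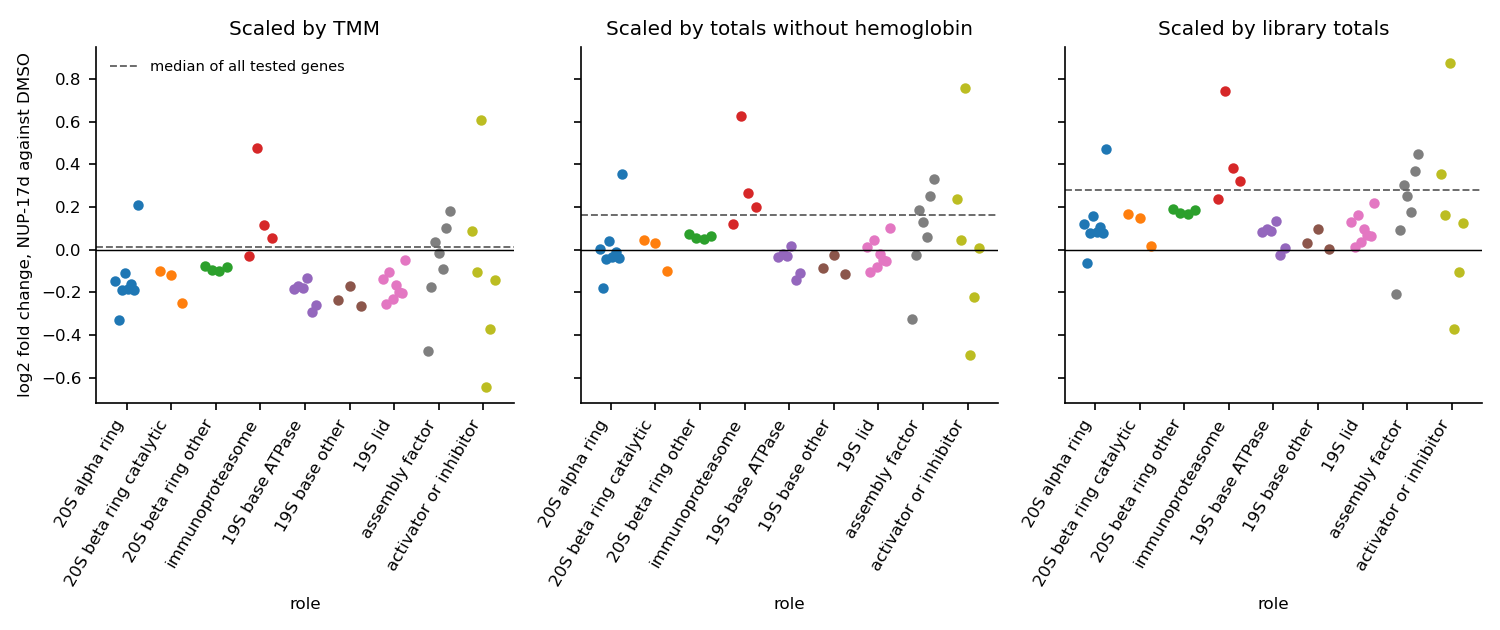
Log2 fold changes of the same 49 genes by role under 3 scalings of the libraries, with 1 point per gene and the median of all tested genes as a dashed line. The whole pattern moves up together, from a median of all genes of 0.014 with TMM to 0.16 without hemoglobin and 0.28 with library totals. The distance of each role to the dashed line stays the same by construction.

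The sequence just before the start of transcription was examined for letters bound by factors known to act on proteasome or interferon-responsive genes. RefSeq promoter windows on GRCm38.p6, from 250 bases before to 50 bases after the start, were found for 42 of the 50 members and for 27025 genes in all. On either strand, the ETS letters CCGGAAG occurred in 15 of the 42 members (35.7%) and in 9.93% of all genes. The antioxidant response element core TGACNNNGC occurred in 6 (14.3%) and in 14.0% of all genes, the AP-1 letters TGACTCA in 1 (2.38%) and in 5.95% of all genes, and the NF-Y letters CCAAT in 15 (35.7%) and in 41.1% of all genes. The interferon response element letters GAAANNGAA occurred in 7 (16.7%) and in 9.76% of all genes, and the STAT letters TTCNNNGAA in 3 (7.14%) and in 9.55% of all genes. Such matches describe the letters alone and no binding was measured. The AP-1 letters can overlap the antioxidant core. The 27025 genes were not limited to those tested here, and the 15 members with ETS letters include Psmc3ip. No test was made of these shares.

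Every obligate subunit of the 20S core lay slightly lower with NUP-17d under TMM. Of 15 core genes 9 were called lower and none higher, beside 18.9% and 16.4% of all genes. Their median log2 fold change was -0.12. With library totals alone 9 were called higher, where 68.7% of all genes were, and none lower. With hemoglobin removed 1 was called lower and none higher, beside 8.57% and 46.4% of all genes. All 14 core genes other than Psma8 lay below the median of all genes under each of these scalings, and in 13 of the 15 all NUP-17d cultures lay below all DMSO cultures, as in 23.2% of all genes.

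The alpha ring forms the gate of the barrel and docks the cap. All 7 of its ordinary subunits, Psma1 to Psma7, were called lower under TMM, from -0.11 for Psma4 to -0.33 for Psma2, whereas with library totals all but Psma2 had values above 0. Psma2 was the most abundant core transcript per length, at 122 FPKM with DMSO. Its CPM was 130, 125 and 128 in DMSO cultures 1, 2 and 3 and 101, 98.2 and 105 in NUP-17d cultures 1, 2 and 3. The groups were well separated, and the log2 fold change was -0.33 ± 0.038 (SE, adjusted p = 8.0e-08, edgeR). Psma2 stayed below 0 under all 3 scalings, at -0.18 with hemoglobin removed and at -0.061 with library totals, where it was no longer called (adjusted p = 0.16, edgeR). Psma4 had the smallest fall and the weakest call (adjusted p = 0.046, edgeR), and lost it without DMSO culture 1 or 3 or NUP-17d culture 1 or 2, with edgeR adjusted p from 0.062 to 0.24, and in DESeq2 (adjusted p = 0.10). Psma1, at -0.14, lost its call without NUP-17d culture 2 (adjusted p = 0.051, edgeR). Psma3 counts were not whole, since some of its reads were shared with another gene. Psma8, which replaces Psma7 in the testis, was at 0.88 to 1.24 CPM with DMSO and 0.72 to 1.60 CPM with NUP-17d, and its difference was within its error (0.21 ± 0.29, adjusted p = 0.61, edgeR).

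In the constitutive beta ring, the catalytic subunits Psmb5, Psmb6 and Psmb7 carry the chymotrypsin-like, caspase-like and trypsin-like activities. Psmb7 changed most, from 77.6, 79.7 and 75.4 CPM with DMSO to 61.5, 64.8 and 69.6 CPM with NUP-17d, and its log2 fold change was -0.25 ± 0.045 (adjusted p = 7.4e-05, edgeR). No NUP-17d culture reached the lowest DMSO culture. Psmb6 was at 75.6, 74.3 and 74.3 CPM with DMSO and 67.0, 67.4 and 72.0 CPM with NUP-17d (-0.12, adjusted p = 0.024, edgeR), a call lost without any DMSO culture or without NUP-17d culture 1 or 2 (edgeR adjusted p from 0.051 to 0.094) and in DESeq2 (adjusted p = 0.072). Psmb5 was at 71.7, 68.1 and 68.1 CPM with DMSO and 64.3, 63.8 and 65.6 CPM with NUP-17d, and just missed the threshold (-0.10, adjusted p = 0.053, edgeR). All 3 turned positive with library totals, at 0.17 for Psmb5, 0.15 for Psmb6 and 0.018 for Psmb7. The structural subunits Psmb1 to Psmb4 spanned only -0.074 to -0.10 under TMM and none was called, and with library totals all 4 were called higher at 0.17 to 0.19. Among them Psmb3 lay lowest, at 72.5, 77.0 and 75.7 CPM with DMSO and 67.3, 72.4 and 70.4 CPM with NUP-17d. Per length the 14 ordinary core subunits, which assemble in equal numbers, spanned 34.2 FPKM for Psma3 to 122 FPKM for Psma2 with DMSO.

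Of the catalytic subunits, Psmb5 and Psmb6 had the antioxidant response element core in their promoter windows, and Psmb7 had no entry in the promoter table. The 250 bases before the start of Psmb5 (chr14:54617996-54618245, GRCm38.p6, minus strand, shown 5′ to 3′ along the gene) are printed with that match, at position -47 from the start, in capitals, because Psmb5 is the subunit against which Psmb8 is compared.
Psmb5: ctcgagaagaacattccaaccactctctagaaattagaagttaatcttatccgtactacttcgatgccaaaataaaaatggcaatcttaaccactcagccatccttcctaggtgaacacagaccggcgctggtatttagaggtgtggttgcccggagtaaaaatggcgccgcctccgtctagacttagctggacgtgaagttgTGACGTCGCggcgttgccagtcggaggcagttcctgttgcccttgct

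Of the 4 immunoproteasome and thymoproteasome genes, 2 were called higher and none lower under TMM, beside 16.4% of all genes called higher, and neither call held in DESeq2. The median log2 fold change was 0.085, and with library totals all 4 were called higher, where 68.7% of all genes were. Psmb8, which takes the place of Psmb5, was at 49.5, 53.0 and 53.6 CPM with DMSO and 56.9, 54.9 and 57.5 CPM with NUP-17d. All NUP-17d cultures lay above all DMSO cultures, but the step was small (0.12 ± 0.044, adjusted p = 0.041, edgeR) and the call was lost in DESeq2 (adjusted p = 0.16) and without DMSO culture 1 or 2 or NUP-17d culture 1 or 3, with edgeR adjusted p from 0.061 to 0.21. Psmb9, the replacement of Psmb6, was at 22.8, 22.6 and 23.2 CPM with DMSO and 22.6, 24.7 and 23.9 CPM with NUP-17d, and the groups overlapped (0.054 ± 0.058, adjusted p = 0.51, edgeR). Psmb10, the replacement of Psmb7, was at 25.5, 25.9 and 29.0 CPM with DMSO and 24.9, 26.6 and 27.4 CPM with NUP-17d, which overlapped as well (-0.030 ± 0.060, adjusted p = 0.74, edgeR). Psmb11, the catalytic subunit of the thymus, was called higher at 2.06 to 2.60 CPM with DMSO and 3.07 to 3.54 CPM with NUP-17d (0.48 ± 0.16, adjusted p = 0.026, edgeR). Its counts were not whole in any culture, so reads shared with another gene make this value uncertain, and it lost its call in DESeq2 (adjusted p = 0.11) and without DMSO culture 2 or NUP-17d culture 2 or 3 (edgeR adjusted p from 0.066 to 0.14).

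The ratio of an immunoproteasome subunit to the subunit it replaces does not depend on library scaling. The ratio of Psmb8 to Psmb5 counts was 0.691, 0.779 and 0.787 in DMSO cultures 1, 2 and 3 and 0.885, 0.861 and 0.877 in NUP-17d cultures 1, 2 and 3. The ratio of Psmb9 to Psmb6 was 0.302, 0.304 and 0.312 with DMSO and 0.338, 0.366 and 0.332 with NUP-17d. The ratio of Psmb10 to Psmb7 was 0.329, 0.325 and 0.385 with DMSO and 0.404, 0.410 and 0.394 with NUP-17d. In all 3 pairs every NUP-17d culture lay above every DMSO culture, and the log2 differences were 0.22 ± 0.061, 0.17 ± 0.045 and 0.22 ± 0.080 (SE, n = 3 cultures each). Each 2-sided exact permutation test gave p = 0.1, the smallest that 3 cultures against 3 allow. It was 0.1 after adjustment over the 3 ratios, so none could pass 0.05. A ratio does not tell a higher numerator from a lower denominator. Under TMM, Psmb8, Psmb9 and Psmb10 were at 0.12, 0.054 and -0.030, and Psmb5, Psmb6 and Psmb7 at -0.10, -0.12 and -0.25. Taken singly, 22.8% of all genes had every NUP-17d culture above every DMSO culture, and 23.2% below. Such a share was not computed for pairs of genes. Per length, Psmb8 made up 34.6% ± 1.62 (SD, n = 3) of the Psmb8 and Psmb5 FPKM with DMSO against 38.1% ± 0.326 with NUP-17d, so that the constitutive subunit remained the larger in both conditions. The corresponding shares were 28.5% ± 0.358 and 31.0% ± 1.11 for Psmb9 with Psmb6, and 20.7% ± 1.56 and 23.3% ± 0.377 for Psmb10 with Psmb7.

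**Figure D3:**
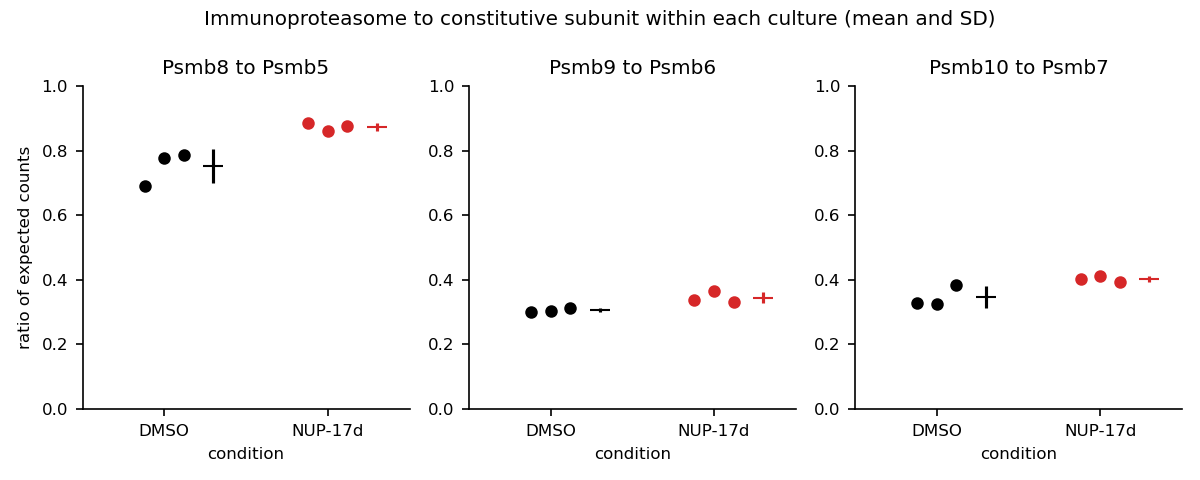
Ratio of expected counts of each immunoproteasome subunit to the constitutive subunit it replaces, on a vertical axis from 0 to 1, for each DMSO and NUP-17d culture (points), with mean and SD beside them. In each panel the NUP-17d cultures lie above the DMSO cultures, with the widest spread in DMSO for Psmb8 to Psmb5, at 0.691 to 0.787.

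The promoter window of Psmb8 held 1 match to the STAT letters, at position -97, and none to the interferon response element letters. The 250 bases before its start (chr17:34197945-34198194, GRCm38.p6, plus strand) are printed with the STAT match in capitals, since Psmb8 was the one immunoproteasome subunit of the usual set that was called.
Psmb8: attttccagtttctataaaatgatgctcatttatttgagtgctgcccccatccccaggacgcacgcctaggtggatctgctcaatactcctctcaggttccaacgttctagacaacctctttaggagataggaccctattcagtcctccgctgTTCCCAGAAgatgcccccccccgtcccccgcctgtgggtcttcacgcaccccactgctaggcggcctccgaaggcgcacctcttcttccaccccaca

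Every gene of the 19S cap had a log2 fold change below 0 under TMM. Of its 17 genes 15 were called lower and none higher, beside 18.9% and 16.4% of all genes. Values ran from -0.049 to -0.29, with a median of -0.18. With library totals 8 were called higher, where 68.7% of all genes were, and none lower. With hemoglobin removed 5 were called lower and 1 higher, beside 8.57% and 46.4% of all genes. All 17 lay below the median of all genes under each of these scalings, by 0.20 at the median.

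All 6 ATPases of the base, Psmc1 to Psmc6, which unfold substrates, were called lower under TMM, from -0.13 for Psmc4 to -0.29 for Psmc5, and all but Psmc5 had values above 0 with library totals. Psmc5 was at 82.7, 82.0 and 86.4 CPM with DMSO and 67.9, 67.4 and 70.1 CPM with NUP-17d (-0.29 ± 0.040, adjusted p = 1.7e-06, edgeR). Psmc6 stayed within 112.7 to 113.6 CPM with DMSO and 94.6 to 94.7 CPM with NUP-17d (-0.26 ± 0.036, adjusted p = 2.1e-06, edgeR), the tightest groups among the ATPases named here. Both were still called lower with hemoglobin removed, at -0.14 and -0.11. The call of Psmc4 was lost without DMSO culture 2 or 3 or NUP-17d culture 1 (adjusted p from 0.056 to 0.063, edgeR).

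Psmd1 and Psmd2, the scaffolds of the base, and Psmd4, the ubiquitin receptor known as Rpn10, were all called lower under TMM at -0.23, -0.17 and -0.26, and lay at 0.034, 0.095 and 0.0025 with library totals. Psmd4 was at 151.4, 151.9 and 151.4 CPM with DMSO and 123, 125 and 131 CPM with NUP-17d (-0.26 ± 0.036, adjusted p = 1.4e-06, edgeR). In the lid, which holds the deubiquitinase Psmd14, 6 of 8 genes were called lower under TMM. Psmd12 had the largest fall, from 79.3, 77.5 and 84.1 CPM with DMSO to 65.9, 69.5 and 66.6 CPM with NUP-17d (-0.25 ± 0.042, adjusted p = 2.4e-05, edgeR). Psmd14 went from 71.0, 70.9 and 68.6 CPM to 59.5, 57.7 and 62.5 CPM (-0.23 ± 0.042, adjusted p = 9.7e-05, edgeR). With library totals these 2 values were 0.013 and 0.038, and neither was called. Psmd8, at 140 to 155 CPM with DMSO and 140 to 148 CPM with NUP-17d, and Psmd13, at 75.8 to 81.4 and 70.5 to 77.7 CPM, overlapped between conditions and were not called.

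Among the genes printed here for their promoters, Psmc6 stands for the ATPases. Its 250 bases before the start (chr14:45329574-45329823, GRCm38.p6, plus strand) hold the ETS letters, in capitals, at position -100, and ETS letters were also found in the windows of Psmc1, Psmc2, Psmd2, Psmd4, Psmd6, Psmd11, Psmd12 and Psmd13 among the cap genes.
Psmc6: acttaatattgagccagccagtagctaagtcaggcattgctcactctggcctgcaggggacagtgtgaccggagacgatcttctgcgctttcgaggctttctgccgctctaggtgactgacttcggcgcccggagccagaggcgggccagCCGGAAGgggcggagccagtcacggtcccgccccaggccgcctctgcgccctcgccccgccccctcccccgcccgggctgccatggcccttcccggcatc

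Assembly factors, which build the core and the base and then leave them, were split. Of 7 genes 2 were called lower and none higher under TMM, beside 18.9% and 16.4% of all genes, and the median was -0.017. Psmd10, known as gankyrin and a chaperone of the base, was at 26.1, 27.5 and 27.2 CPM with DMSO and 19.6, 18.5 and 20.2 CPM with NUP-17d. Its log2 fold change of -0.47 ± 0.059 (adjusted p = 3.3e-07, edgeR) was still a call with hemoglobin removed, at -0.32, and with library totals, at -0.21. Its span overlaps Atg4a in the annotation, and the sources used here do not state whether counting used strand. Psmd5, another base chaperone, went from 77.9 to 82.4 CPM with DMSO to 67.1 to 72.8 CPM with NUP-17d (-0.17 ± 0.042, adjusted p = 0.0020, edgeR), and was at 0.094 and not called with library totals. Psmd9, the other base chaperone of this group, was at 34.2 to 36.4 CPM with DMSO and 35.2 to 37.7 CPM with NUP-17d and was not called (0.036, adjusted p = 0.61, edgeR). The alpha-ring chaperones Psmg1 to Psmg4 were all low, at 8.09 to 17.4 FPKM with DMSO, and none was called, with log2 fold changes from -0.089 to 0.18 and standard errors from 0.063 to 0.12. Psmg4, with the largest of these values, was at 6.63, 8.17 and 5.75 CPM with DMSO and 7.05, 7.57 and 8.70 CPM with NUP-17d.

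The activators held both the largest fall and the largest rise of the family. Psme3, the nuclear activator known as PA28 gamma or REG gamma, promotes degradation of certain proteins without ubiquitin. It was at 1331, 1229 and 1306 CPM in DMSO cultures 1, 2 and 3 and at 832, 810 and 837 CPM in NUP-17d cultures 1, 2 and 3. The highest NUP-17d culture lay far below the lowest DMSO culture, and the log2 fold change was -0.64 ± 0.037, so that its level fell by 35.9% (adjusted p = 1.4e-13, edgeR). It was called lower under the other 2 scalings too, at -0.49 with hemoglobin removed (adjusted p = 6.9e-13, edgeR) and at -0.37 with library totals (adjusted p = 7.9e-11, edgeR).

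Psme3 was also by far the most abundant member. Per length it stood at 443 FPKM with DMSO and 343 FPKM with NUP-17d, where the next gene, Psma2, stood at 122 FPKM with DMSO, and it ranked 122 among the 17060 genes by mean FPKM with DMSO. Its FPKM was 6.33 ± 0.257 (SD, n = 3) times the mean of the 20S and 19S subunits with DMSO and 4.56 ± 0.0899 times it with NUP-17d, a comparison within each culture that no scaling can alter. Its share of the FPKM of all members was 15.2%, 14.2% and 15.0% with DMSO and 11.2%, 10.8% and 10.9% with NUP-17d.

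**Figure D4:**
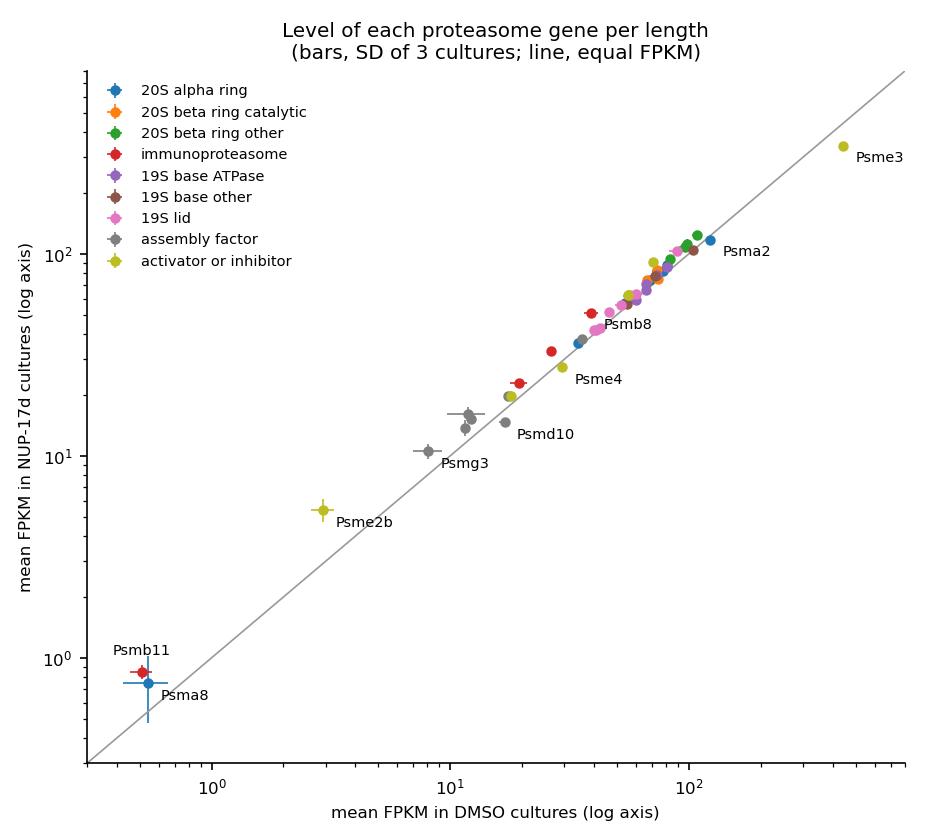
Mean FPKM of each proteasome gene in the DMSO cultures against the NUP-17d cultures, both on log axes, colored by role, with bars for the SD of 3 cultures and a line of equal FPKM. Psme3 stands apart at 443 FPKM with DMSO and lies below the line together with Psme4, Psmd10, Psma2 and, by a small margin, Psmc5, while most other genes lie slightly above it, FPKM being scaled by library totals.

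Psme4, known as PA200, a large single-chain activator that binds the end of the core, was at 218, 214 and 207 CPM with DMSO and 174, 160 and 160 CPM with NUP-17d. It was called lower at -0.37 ± 0.039 (adjusted p = 1.6e-08, edgeR), with the groups well apart, and remained called at -0.22 with hemoglobin removed and at -0.10 with library totals (adjusted p = 0.026, edgeR). Its span overlaps Erlec1, so some of its reads may be uncertain. Psmf1, the inhibitor known as PI31, was at 75.5, 68.8 and 69.9 CPM with DMSO and 68.6, 62.9 and 62.8 CPM with NUP-17d (-0.14 ± 0.046, adjusted p = 0.018, edgeR). It turned to 0.13 and was called higher with library totals, and under TMM its call was lost without DMSO culture 1 or NUP-17d culture 2 or 3 (adjusted p from 0.069 to 0.13, edgeR) and in DESeq2 (adjusted p = 0.0502).

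Psme1 and Psme2 encode the alpha and beta chains of the interferon-inducible activator PA28. Psme1 was at 76.0, 72.7 and 76.7 CPM with DMSO and 78.4, 78.6 and 82.7 CPM with NUP-17d, which did not overlap but did not pass the test (0.089 ± 0.040, adjusted p = 0.091, edgeR). Psme2 was at 52.5, 51.4 and 53.2 CPM with DMSO and 45.7, 49.1 and 51.5 CPM with NUP-17d (-0.10 ± 0.047, adjusted p = 0.089, edgeR). Psme2b, a near-identical copy of Psme2, was called higher (0.61 ± 0.14, adjusted p = 0.0015, edgeR), at 3.42, 3.004 and 3.76 CPM with DMSO and 5.11, 5.83 and 4.58 CPM with NUP-17d. The counts of both copies were not whole in any culture, and how the authors' counting split shared reads between them is uncertain. Summed, the copies were at 54.4 to 57.0 CPM with DMSO and 50.8 to 56.1 CPM with NUP-17d, which overlapped. Of these sums Psme2b was at most 5.83 CPM. Psme2b took 5.51% to 6.57% of the counts of the pair with DMSO and 8.16% to 10.6% with NUP-17d.

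**Figure D5:**
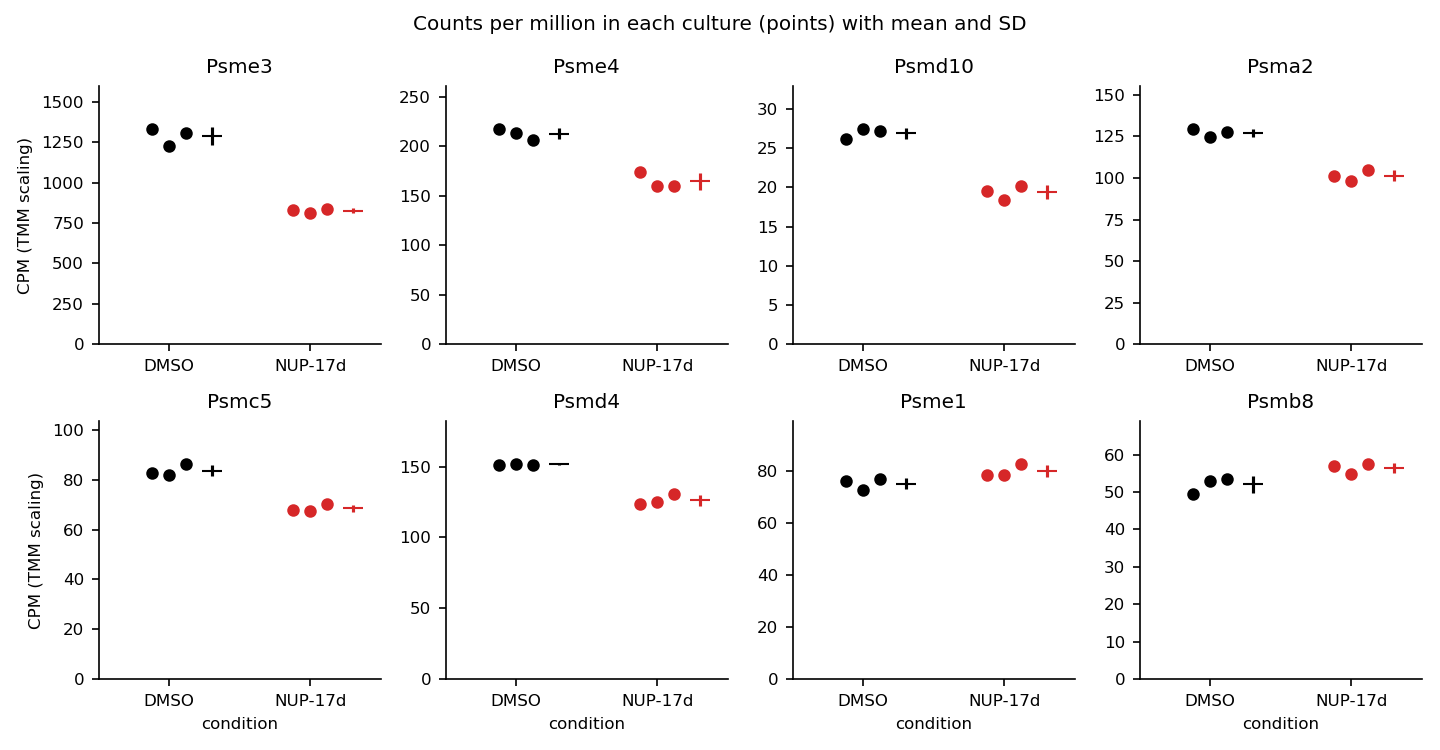
CPM under TMM scaling of 8 proteasome genes in each of the 6 cultures (points), with mean and SD, on axes that start at 0. Psme3, Psme4, Psmd10, Psma2, Psmc5 and Psmd4 are lower in every NUP-17d culture, whereas Psme1 and Psmb8 are slightly higher.

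Both activators that were called lower under all 3 scalings carried the ETS letters before their start, at position -107 in Psme3 and at -53 in Psme4. A further match of Psme3 lay after its start, outside the stretch printed. The 250 bases before the start of Psme3 (chr11:101315963-101316212) and Psme4 (chr11:30771525-30771774), on GRCm38.p6 and on the plus strand, are printed because these genes had the lowest p-values of the family, with the ETS letters in capitals.
Psme3: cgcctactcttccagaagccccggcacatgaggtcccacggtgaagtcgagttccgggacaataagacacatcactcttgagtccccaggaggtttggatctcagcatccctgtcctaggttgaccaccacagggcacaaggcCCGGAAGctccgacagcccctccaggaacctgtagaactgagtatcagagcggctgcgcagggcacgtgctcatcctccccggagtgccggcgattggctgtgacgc
Psme4: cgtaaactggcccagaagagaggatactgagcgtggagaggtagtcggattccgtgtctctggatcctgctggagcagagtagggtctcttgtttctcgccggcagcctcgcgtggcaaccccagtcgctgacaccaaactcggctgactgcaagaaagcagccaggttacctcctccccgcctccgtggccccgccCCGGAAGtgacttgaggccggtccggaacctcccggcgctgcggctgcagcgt

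Genes that act with the proteasome but fall outside the name rule were read beside it. Of 11 associated genes tested, 7 were called lower and 1 higher under TMM, beside 18.9% and 16.4% of all genes. Their median was -0.12. Zfand5, which stimulates the 26S proteasome, was at 388, 360 and 376 CPM with DMSO and 258, 269 and 269 CPM with NUP-17d (-0.50 ± 0.036, adjusted p = 1.5e-11, edgeR). Usp14, a deubiquitinase of the cap, was at 146, 141 and 140 CPM with DMSO and 112, 110 and 112 CPM with NUP-17d (-0.35 ± 0.036, adjusted p = 1.1e-08, edgeR). Both stayed called lower with library totals, at -0.23 and at -0.084 (adjusted p = 0.05, edgeR). Akirin2, which carries proteasomes into the nucleus, was called at -0.33, and Uchl5, another deubiquitinase of the cap, at -0.28. Neither was called with library totals, at -0.059 and -0.0097. Pomp, the maturation factor of the core, and Adrm1, a ubiquitin receptor, were called at -0.12 and -0.11, but both turned to 0.15 with library totals. Under TMM the call of Pomp was lost without DMSO culture 1 or 3 or NUP-17d culture 2, and that of Adrm1 without any single culture other than NUP-17d culture 3 (adjusted p from 0.056 to 0.20, edgeR), and both were lost in DESeq2 (adjusted p of 0.094 and 0.096). Zfand2a, an arsenite-inducible relative of Zfand5, was the one called higher, at 0.19 (adjusted p = 0.014, edgeR), and was not called without DMSO culture 2 or NUP-17d culture 2 (adjusted p of 0.090 and 0.079, edgeR) or in DESeq2 (adjusted p = 0.089).

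Other factors bring ubiquitinated proteins to the proteasome. Of 9 tested, 3 were called lower and 1 higher under TMM, beside 18.9% and 16.4% of all genes. Rad23b, a shuttle that binds ubiquitin chains and the cap, was at 154 to 158 CPM with DMSO and 149 to 156 CPM with NUP-17d and was not called (-0.020 ± 0.035, adjusted p = 0.70, edgeR). Vcp, the segregase that extracts substrates, was called lower at -0.15 and turned to 0.11 with library totals. Ubqln2, another shuttle, was the one called higher (0.14, adjusted p = 0.019, edgeR), a call lost without DMSO culture 2 or 3 or NUP-17d culture 1 or 2 (adjusted p from 0.053 to 0.083, edgeR) and in DESeq2 (adjusted p = 0.10).

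Ubiquitin itself is made from several genes. Of the 6 ubiquitin and E1 genes, 3 were called lower and none higher under TMM, beside 18.9% and 16.4% of all genes. Ubb, a polyubiquitin gene, was at 4138, 3896 and 3939 CPM with DMSO and 2696, 2732 and 2907 CPM with NUP-17d (-0.52 ± 0.040, adjusted p = 3.4e-11, edgeR). Uba1, the main ubiquitin-activating enzyme, was called lower at -0.41 and the alternative enzyme Uba6 was not called, at 0.023. Ubb and Uba1 stayed below 0 and called with library totals, at -0.26 and -0.14.

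Of the regulators of proteasome genes, Nfe2l1, which raises proteasome transcription when the proteasome is inhibited, was at 202 to 223 CPM with DMSO and 201 to 213 CPM with NUP-17d and was not called (-0.024, adjusted p = 0.67, edgeR), and Nfe2l2 was not called either (0.0085, adjusted p = 0.87, edgeR). Their erythroid relative Nfe2 was called lower at -0.61 (adjusted p = 3.2e-13, edgeR), from 864 to 920 CPM with DMSO to 564 to 603 CPM with NUP-17d. The small Maf partners Mafk and Mafg were called lower at -0.63 and -0.36. These 3 were called lower with library totals as well. They were the 3 called under TMM among 7 genes listed as regulators or their relatives and partners. Over all genes 18.9% were called lower and 16.4% higher.

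Class I antigen processing, which presents peptides cut by the proteasome, was more often higher than lower. Of 14 genes 7 were called higher and 1 lower under TMM, with a median of 0.11, beside 16.4% and 18.9% of all genes, and with library totals 13 were called higher and none lower, where 68.7% of all genes were called higher. B2m, the light chain of class I molecules, was at 712, 732 and 763 CPM with DMSO and 920, 995 and 962 CPM with NUP-17d (0.38 ± 0.037, adjusted p = 4.8e-09, edgeR), and H2-D1, a heavy chain, was at 659 to 662 and 815 to 841 CPM (0.33 ± 0.033, adjusted p = 9.2e-09, edgeR). H2-K1 was called at 0.18, and the peptide transporter genes Tap2 and Tap1 at 0.20 and 0.11. Tap1 lost its call without any single culture other than DMSO culture 1 (adjusted p from 0.062 to 0.22, edgeR), and in DESeq2 (adjusted p = 0.17). Calr, a chaperone of the endoplasmic reticulum, was the one called lower, at -0.20, and turned to 0.071 with library totals. Irf8, a myeloid factor able to act on immunoproteasome genes, was called higher at 0.20.

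Marker genes of the cell types that the cultures could hold were measured beside these groups. Calls among them stand beside 18.9% of all genes called lower and 16.4% called higher under TMM. All 10 erythroblast markers were called lower under TMM, with a median of -0.60, and their summed level was 24294 to 26108 CPM with DMSO and 14904 to 15783 CPM with NUP-17d. Alas2, the erythroid enzyme of heme synthesis, was at -0.76, and Klf1, an erythroid transcription factor, at -0.24, was the least changed of the 10 and lay at 0.028 with library totals. The summed neutrophil and monocyte markers were 6389 to 6589 CPM with DMSO and 6703 to 6928 CPM with NUP-17d, with 2 of 10 called higher, near the 16.4% of all genes, and none lower, and most of the difference in the sum came from Lyz2, at 2386 CPM with DMSO and 2699 CPM with NUP-17d (means of 3 cultures). Of the 7 macrophage and dendritic markers 5 were called lower and 1 higher, the sum being 1457 to 1528 CPM with DMSO and 1059 to 1204 CPM with NUP-17d. The summed megakaryocyte markers were 332 to 363 CPM with DMSO and 375 to 398 CPM with NUP-17d, with 3 of 5 called higher. The mast cell and basophil markers summed to 208 to 225 and 186 to 191 CPM with 1 of 5 called higher and 2 lower, the lymphoid markers to 21.5 to 24.6 and 19.2 to 19.5 CPM with 2 of 5 called lower, and the stem and progenitor markers to 203 to 207 and 208 to 222 CPM with 1 of 4 tested called higher. The part that the makeup of the cultures had in the lower levels of Psme3 and Psme4 or in the ratios of immunoproteasome subunits was not tested.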

How the data were processed

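RNA from 3 DMSO and 3 NUP-17d cultures was selected by poly(A) and sequenced in single reads of 50 bases on a DNBseq instrument per the labels, whereas the methods of the study name a stranded Illumina kit. The authors deposited 1 table per culture with an expected count per gene, not normalized, and an FPKM value scaled by gene length and library total. The submitters' notes name mm10, and the aligner and counter are not given in the sources used here. Genes absent from a table were taken as 0. Expected counts were rounded, filtered (filterByExpr), scaled by TMM and tested with glmQLFit and glmQLFTest of edgeR 4.0.16 in R 4.3.3, with Benjamini-Hochberg adjustment over 12306 genes. Levels between genes were compared by FPKM only. Ratios were tested by exact permutation in scipy. Alternatives were library totals, removal of hemoglobin genes, DESeq2 1.42.0, no filter, a replicate block and leaving out each culture. Replicate pairs differed by more than sampling noise, at 1.84 to 4.54 chi-square per degree of freedom, so all 6 were kept. Totals were 20076409 to 20419018, and edgeR's common biological variation came to 2.95% as a coefficient of variation. The members, gene lists and motifs were chosen with earlier results of these data known. Every member was described by role, with values in every culture for the largest rise, largest fall and lowest p of a role, for immunoproteasome subunits with their counterparts, and for activators and the inhibitor, and genes of the other lists were named freely among those tested. Some genes of these lists are not reported here. Promoter sequences came from RefSeq on GRCm38.p6.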

Additional observations from a re-analysis of the deposited data

How the results depend on the processing

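Scaling decided the direction of most small changes. With library totals alone, the members called higher were 30 and those called lower 3, with 9 and 0 for the 20S core, 4 and 0 for the immunoproteasome, 8 and 0 for the 19S cap, 4 and 2 for activators and inhibitor, and 5 and 1 for assembly factors. With hemoglobin genes removed, 8 members were called higher and 9 lower, with 0 and 1 for the core, 3 and 0 for the immunoproteasome, 1 and 5 for the cap, 2 and 2 for activators and inhibitor, and 2 and 1 for assembly factors. Over all genes, 68.7% were called higher and 5.36% lower with library totals, and 46.4% and 8.57% with hemoglobin genes removed. DESeq2 called 1 member higher and 26 lower, and 0 of the immunoproteasome subunits; it called 3153 genes in all against 4346 in edgeR. The cause of the DESeq2 differences was not tested. The log2 fold changes that turned positive with library totals were Psma1 0.12, Psma3 0.0765, Psma4 0.16, Psma5 0.0834, Psma6 0.11, Psma7 0.0795, Psmb1 0.19, Psmb10 0.24, Psmb2 0.17, Psmb3 0.17, Psmb4 0.18, Psmb5 0.17, Psmb6 0.15, Psmb7 0.0181, Psmc1 0.0851, Psmc2 0.10, Psmc3 0.0885, Psmc3ip 0.14, Psmc4 0.14, Psmc6 0.0098, Psmd1 0.0336, Psmd11 0.13, Psmd12 0.0131, Psmd13 0.16, Psmd14 0.0381, Psmd2 0.0953, Psmd3 0.10, Psmd4 0.0025, Psmd5 0.0939, Psmd6 0.0685, Psmd7 0.066, Psmd8 0.22, Psme2 0.16, Psmf1 0.13, Psmg1 0.25, Psmg2 0.18, Pomp 0.15, Adrm1 0.15, Rad23b 0.25, Vcp 0.11, Nfe2l1 0.24 and Calr 0.0713. Those that turned positive with hemoglobin genes removed were Psma1 0.0045, Psma4 0.0419, Psmb1 0.0751, Psmb10 0.12, Psmb2 0.0543, Psmb3 0.0485, Psmb4 0.067, Psmb5 0.0477, Psmb6 0.0296, Psmc3ip 0.0219, Psmc4 0.0186, Psmd11 0.0141, Psmd13 0.0459, Psmd8 0.10, Psme2 0.0458, Psmf1 0.0094, Psmg1 0.13, Psmg2 0.0602, Pomp 0.028, Adrm1 0.0352, Rad23b 0.13 and Nfe2l1 0.13. By construction both scalings move all genes by the same amount.

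The same-numbered cultures did not deviate together, with correlations of 0.034, -0.021 and -0.032. With 3 cultures per group these values cannot settle whether the numbers pair the cultures. A fit with the replicate number as a block called 4543 genes in all, against 4346 without it. With the replicate block, 32 members were called lower and 3 higher, the 3 further core calls being Psmb2, Psmb3 and Psmb5, and the 3 ratios kept their values of 0.22, 0.17 and 0.22 with exact p = 0.25, the smallest that sign flips of 3 differences allow. Leaving out 1 culture gave 26 to 30 members called lower and 1 to 3 called higher, 7 to 9 core and 14 to 16 cap subunits lower, and 0 to 2 immunoproteasome subunits higher. No immunoproteasome subunit was called higher without DMSO culture 2 or NUP-17d culture 3, and 1 member in all was called higher without either. It turned the sign of 6 uncalled genes, with ranges of -0.090 to 0.46 for Psma8, -0.064 to 0.030 for Psmb10, -0.079 to 0.061 for Psmg1, -0.051 to 0.022 for Nfe2l1, -0.0031 to 0.020 for Nfe2l2 and -0.024 to 0.072 for Uba6, and of no called gene named here. Ratios of FPKM gave the same differences as ratios of counts. Without a filter on low counts, 28 members were called lower and 3 higher. Depth limits the genes under about 10 CPM, where standard errors exceed 0.1 on the log2 scale.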
